A study of Mus musculus with 13 samples.

Results

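The genes described here are those of the mouse proteasome, the protein-degrading machine of the cell, in oocytes before and after meiotic maturation. They were chosen by symbol from the deposited count tables: Psm followed by a letter from a to g and a number. The choice gave 50 of 18939 genes. They were 8 core alpha genes (Psma), 11 core beta genes (Psmb), 6 ATPase genes (Psmc), 14 genes of the lid and base (Psmd), 5 activator genes (Psme), 1 inhibitor gene (Psmf1) and 4 assembly chaperone genes (Psmg). The remaining gene, Psmc3ip, encodes a meiotic recombination factor and no subunit, so its values are given apart and 49 genes are counted below. Each of 13 libraries held the RNA of 1 oocyte from C57BL/6 females aged 3 to 4 weeks, primed with PMSG for 48 h. Oocytes were injected with FBL–GFP and H2B-mCherry mRNA and kept in 10 µM Cilostamide for 6 h, which holds them at the germinal vesicle (GV) stage. They were sorted alive by the pattern of the nucleolar protein FBL–GFP into the non-surrounded nucleolus type (NSN) and the surrounded nucleolus type (SN). The GV groups held 3 oocytes each. After release from Cilostamide, 3 NSN oocytes (NSN-MII) and 4 SN oocytes (SN-MII) were taken at metaphase of the second meiotic division. All oocytes carried the injected mRNAs, so none was untreated, and the labels do not say how many females they came from.

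The proteasome cuts proteins inside a barrel, the core particle. Rings of alpha subunits close its ends, and rings of beta subunits inside hold the cutting sites. A regulatory particle caps the barrel: its base holds the ATPases that unfold and push in the protein, and its lid removes the ubiquitin tag. Activators can take the place of the regulatory particle, and chaperones help to build the complex. In oocytes the proteasome removes cyclin and securin as meiosis proceeds. Maturation takes place with transcription largely off, while stored mRNAs are translated, lengthened at the poly(A) tail or removed.

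Total counts per library were 7140416 to 7932432 at GV and 7419438 to 8846287 at MII, and 11593 to 13342 genes had a count. Precision was limited by the number of oocytes, and intervals from counts would cover counting error only. The third NSN-MII library stood apart: it had the fewest genes and held only 2 counts of Psma5 and 3 of Psmc2, where the other MII libraries held 296 to 546 and 51 to 131. All 9 oocyte markers were present, with a summed level of 16069 to 27357 CPM (counts scaled to library depth with the TMM factors of edgeR). The 16 markers of cumulus and granulosa cells summed to 62.1 to 93.0 CPM at GV and 101 to 188 CPM at MII, mostly from Cyp19a1. Of these markers 7 to 9 had no more than 3 counts in any library of a group, and Foxl2 and Ptx3 were at 0 throughout. The 8 leukocyte markers summed to 7.74 to 15.1 CPM, with Adgre1, Cd52 and Tyrobp at 0. The part of other cells in the changes from GV to MII was not tested. SMART-seq2 primes on poly(A) tails, so loss of an mRNA and a shortened tail cannot be told apart. Levels given here are relative to the other mRNAs of a library, and the amount of mRNA per oocyte was not measured. For a rise, more mRNA, a longer tail and loss of other mRNAs cannot be told apart.

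The 49 genes together took 0.744% to 0.983% of the counts of a NSN GV oocyte and 0.811% to 0.881% of a SN GV oocyte. At MII they took 0.381% to 0.421% in NSN-MII oocytes and 0.425% to 0.458% in SN-MII oocytes, so the stages did not overlap. Among them 43 passed the filter on low counts and were tested between stages. In edgeR's quasi-likelihood test, 32 were lower at MII (74.4%) and 6 were higher (14%) at an adjusted p under 0.05. Of all 11375 genes tested, 36.8% were lower and 31.7% higher. The median log2 change was -2.28 for the 43 genes and -0.10 for all genes. Scaling by the library total alone moved the median of all genes to -0.39, with 36 proteasome genes lower and 3 higher. Psmb11, Psmd13 and Psmg2 passed the filter only through the GV libraries. Among the 40 genes that also passed it at MII, 29 were lower and the median log2 change was -2.07. Without the third NSN-MII library 29 of 43 were lower and 5 higher. Non-overlapping levels between the 6 GV and the 7 MII oocytes were seen for 26 genes that were lower, beside 26.5% of all genes, and for 3 that were higher, beside 20.9% of all genes. The 26 include Psmb11, with at least 1.53 CPM at GV and at most 1.41 CPM at MII. Its separation is not independent of the filter that it passed only through the GV libraries.

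**Figure D1:**
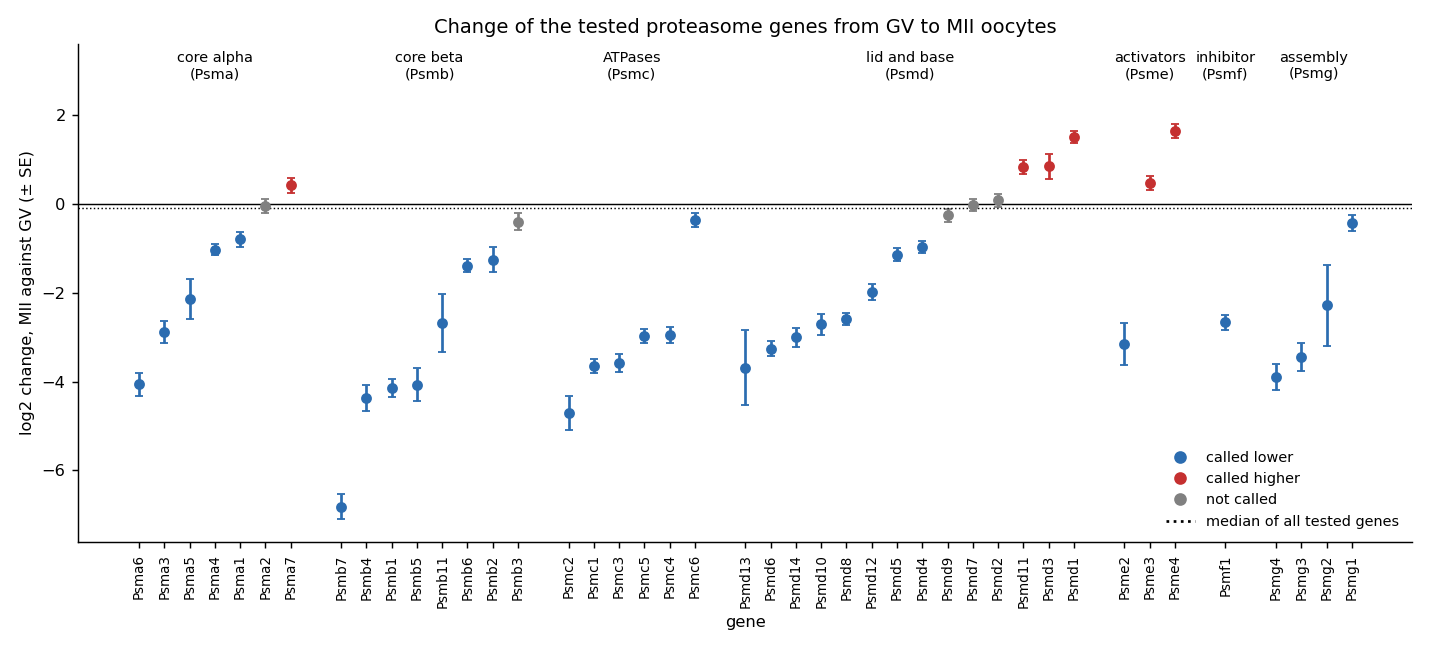
Log2 change from GV to MII (vertical axis, ± SE) of the 43 tested proteasome genes, ordered within each subcomplex, from edgeR's fit of all 13 libraries. Blue points were called lower, red points higher and grey points neither. The dotted line is the median of all tested genes at -0.10. The ATPases and assembly genes are all blue, and the red points are Psma7, 3 lid and base genes and 2 activators.

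Core alpha genes. Of 8 members 7 were tested, 5 were lower, 1 was higher and 1 was not called, with a median log2 change of -1.03. Psma6 fell most. Its lowest, median and highest levels were 135, 189.6 and 231 CPM at GV and 6.07, 13.1 and 18.5 CPM at MII, with no overlap (-4.06 ± 0.26 (SE), adjusted p = 8.34e-10). The log2 changes of Psma3 and Psma5 were -2.89 ± 0.25 (SE) and -2.15 ± 0.45 (SE). The change of Psma5 was -1.88 ± 0.16 (SE) without the third NSN-MII library. Psma4 and Psma1 fell less (-1.03 ± 0.13 (SE) and -0.79 ± 0.17 (SE)). Psma7 encodes an alpha ring subunit and went the other way. Its CPM was 550.0, 759 and 975 at GV and 828, 958 and 1367 at MII (lowest, median, highest), so the stages overlapped (0.42 ± 0.16 (SE), adjusted p = 0.0304). This call was lost without the third NSN-MII library (0.26, adjusted p = 0.0807), with DESeq2 (0.37, adjusted p = 0.0572), with DESeq2's size factors (0.37, adjusted p = 0.0629), with the library total alone (0.11, adjusted p = 0.445) and with the replicate number as a block (0.37, adjusted p = 0.0779). It was also lost without SN GV 2, SN GV 3, NSN GV 1, NSN GV 3 or SN-MII 4, so 7 of 13 fits with 1 library left out made the call (adjusted p up to 0.0807). On FPKM limma called it (0.79, adjusted p = 4.27e-05). Psma2 had 291, 434 and 536 CPM at GV and 241, 520.5 and 745 CPM at MII and was not called (-0.04 ± 0.16 (SE), adjusted p = 0.828), although the library total alone called it lower (-0.34, adjusted p = 0.0225). Psma8, the testis variant of Psma7, was not tested: it had 3 counts in 1 NSN GV library and 0 in the other 12.

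Core beta genes. Of 11 members 8 were tested, 7 were lower, 1 was not called and none was higher, with a median log2 change of -3.38. Without Psmb11, which passed the filter only through the GV libraries, 6 of 7 were lower, with a median of -4.07. The constitutive cutting subunits are encoded by Psmb5 (chymotrypsin-like), Psmb6 (caspase-like) and Psmb7 (trypsin-like). Psmb7 showed the largest fall of all 43 genes. It lies at chr2:38588036-38644087 on the minus strand of mm10, and 405 of its 3421 exon bases overlap Nek6 on the opposite strand. Its lowest, median and highest levels were 197, 281 and 329 CPM at GV and 1.09, 2.76 and 3.96 CPM at MII (-6.81 ± 0.28 (SE), adjusted p = 1.42e-11). Psmb5 went from 38.9, 59.8 and 85.1 CPM to 1.01, 3.94 and 5.83 CPM (-4.07 ± 0.37 (SE), adjusted p = 6.68e-08). Psmb6 kept more of its level: 169, 214 and 284 CPM at GV and 72.8, 84.1 and 99.2 CPM at MII (-1.39 ± 0.15 (SE), adjusted p = 3.19e-07). For all 3 genes every MII oocyte was below every GV oocyte.

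The structural ring members Psmb4 and Psmb1 had log2 changes of -4.37 ± 0.29 (SE) and -4.14 ± 0.20 (SE), and Psmb2 one of -1.26 ± 0.28 (SE). Psmb3 had 70.7, 81.3 and 125 CPM at GV and 42.7, 66 and 92.1 CPM at MII (-0.40 ± 0.18 (SE), adjusted p = 0.0669), and DESeq2 (-0.45, adjusted p = 0.0359), the library total alone (-0.68, adjusted p = 0.00616) and limma on FPKM (-0.54, adjusted p = 0.0151) called it lower. The inducible cutting subunits of immune cells were close to absent. Psmb9 had 0 counts in all 13 libraries, where a count of 0 allows up to 3 counts in each. Psmb8 had 1 count in 1 library, and Psmb10 had 2 to 9 counts in GV and 0 to 2 counts in MII libraries. Psmb11, the variant of the thymic cortex, had 95 counts in the first NSN GV library, 12 to 23 in the other GV libraries and 0 to 11 at MII (-2.68 ± 0.66 (SE), adjusted p = 0.00168).

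**Figure D2:**
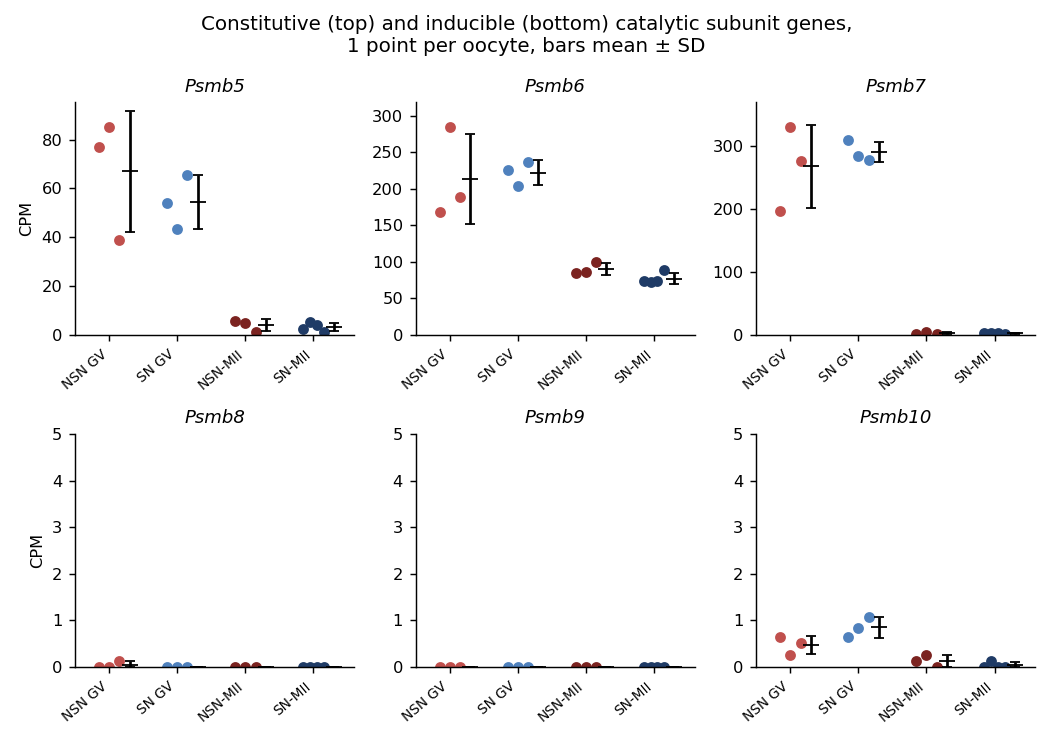
CPM (vertical axes, starting at 0 and differing between panels) of the constitutive catalytic genes Psmb5, Psmb6 and Psmb7 and of the inducible genes Psmb8, Psmb9 and Psmb10 in the 4 groups, 1 point per oocyte, with mean ± SD. Psmb7 drops from 197 to 329 CPM at GV to 1.09 to 3.96 CPM at MII, Psmb6 stays at 72.8 to 99.2 CPM at MII, and the inducible genes lie near 0 in all groups.

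ATPase genes. All 6 members were tested and all 6 were lower, with a median log2 change of -3.28. They form the unfolding ring at the base. Psmc2 fell most, from 177, 255 and 292 CPM (lowest, median, highest) at GV to 0.506, 10.3 and 16.8 CPM at MII (-4.70 ± 0.39 (SE), adjusted p = 2.14e-08). The lowest value was from the third NSN-MII library, and the change without it was -4.46 ± 0.23 (SE). The log2 changes of Psmc1, Psmc3, Psmc4 and Psmc5 were -3.65, -3.58, -2.96 and -2.97. Psmc5 had the highest level per length of the 6 over all libraries. Its CPM was 185, 276 and 304 at GV and 28.8, 32.7 and 38.6 at MII, with no overlap. Psmc6 changed least, from 99.4, 127 and 156 CPM to 72.7, 102 and 116 CPM, with overlap (-0.36 ± 0.16 (SE), adjusted p = 0.0475). Its call was made in 6 of 8 other settings and in 4 of the 13 fits with 1 library left out (adjusted p of 0.0246 to 0.127). Leaving out the third NSN-MII library gave 0.0768. The order by FPKM (fragments scaled by transcript length and library depth) turned over: Psmc6 was the lowest of the 6 in each of the 6 GV oocytes and the highest in each of the 7 MII oocytes. Psmc3ip, the recombination factor that shares the symbol, had 34, 45.8 and 73.8 CPM at GV and 0.169, 0.952 and 1.99 CPM at MII (-5.89 ± 0.36 (SE)), and 21.2% of its exon bases overlap Mlx on the opposite strand.

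Lid and base genes. All 14 members were tested; 8 were lower, 3 higher and 3 not called, with a median log2 change of -1.05. Without Psmd13, which passed the filter only through the GV libraries, 7 of 13 were lower, with a median of -0.97. Psmd1 encodes the scaffold of the base, to which other subunits bind, and lies at chr1:86064387-86139151 on the plus strand. It had 177, 211 and 242 CPM at GV and 483, 589 and 734 CPM at MII, and every MII oocyte was above every GV oocyte (1.51 ± 0.14 (SE), adjusted p = 8.8e-08). Psmd11, whose lid subunit clamps the cap to the core, rose likewise without overlap, from 161, 233 and 255 CPM to 299, 399.9 and 491 CPM (0.82 ± 0.16 (SE), adjusted p = 0.000184). Its counts were not whole in any library, so RSEM assigned some of its reads in part. Psmd3, another lid subunit, had 43.2, 85.4 and 119.7 CPM at GV and 62.6, 168 and 233 CPM at MII, with overlap (0.85 ± 0.27 (SE), adjusted p = 0.0118). Its call was lost with the library total alone (0.54, adjusted p = 0.117) and with limma on FPKM (0.65, adjusted p = 0.0642).

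The 3 lid and base genes Psmd2, Psmd7 and Psmd9 were not called in either direction. Psmd2 encodes the other large base scaffold, on which ubiquitin shuttles dock, and had 211, 271 and 323 CPM at GV and 221, 275 and 398 CPM at MII (0.08 ± 0.15 (SE), adjusted p = 0.654). Its sign turned with the library total alone (-0.19) and with limma on FPKM (-0.16). Psmd7 had 76.6, 83.5 and 109 CPM and 77.8, 87.3 and 91.7 CPM (-0.02 ± 0.13 (SE), adjusted p = 0.879). It encodes the partner of the deubiquitinase Psmd14 in the lid, and Psmd14 was lower (-3.0 ± 0.21 (SE)). Psmd9, a chaperone of base assembly, had 122, 157 and 188 CPM and 93, 139 and 179 CPM (-0.26 ± 0.14 (SE), adjusted p = 0.111). Of its exon bases 25.5% overlap Gm26745 on the opposite strand. The library total alone called Psmd7 (-0.32, adjusted p = 0.0438) and Psmd9 (-0.54, adjusted p = 0.00234) lower, and limma on FPKM called Psmd9 lower (-0.48, adjusted p = 0.00215).

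The lid subunit genes Psmd6, Psmd8 and Psmd12 had log2 changes of -3.26 ± 0.17 (SE), -2.59 ± 0.14 (SE) and -1.98 ± 0.17 (SE). Psmd10, a chaperone of base assembly, was lower (-2.71 ± 0.23 (SE)). Psmd4, a receptor for ubiquitin chains, and Psmd5, a further base chaperone, were lower too (-0.97 ± 0.13 (SE) and -1.14 ± 0.15 (SE)). Psmd13 had few reads, 8 to 151 counts at GV and 0 to 13 at MII, with overlap (-3.68 ± 0.85 (SE), adjusted p = 0.00106). Leaving out 1 library gave log2 changes from -6.28 (no NSN-MII 1) to -3.28 (no NSN GV 1). With limma on log2(FPKM + 1) it was -1.84.

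Activators and inhibitor. Of the 5 Psme genes 3 were tested; 1 was lower and 2 were higher. Psme4 encodes a large activator of a single chain, known from male germ cells and chromatin, and lies at chr11:30771726-30880361 on the plus strand. It had the largest rise of the 43 genes, from 31.7, 49.7 and 52.6 CPM at GV to 115, 126 and 180.4 CPM at MII, with no overlap (1.64 ± 0.17 (SE), adjusted p = 2.05e-07). Psme3, the gene of a nuclear ring activator, had 44.6, 57.3 and 64.5 CPM and 56.1, 82.2 and 99.6 CPM, with overlap (0.48 ± 0.16 (SE), adjusted p = 0.012). Its call was lost with the library total alone (0.18, adjusted p = 0.226). Psme1 and Psme2 make the interferon-inducible ring activator. Psme2 fell from 13.8, 14.7 and 24.5 CPM to 0, 2.65 and 3.68 CPM (-3.16 ± 0.47 (SE), adjusted p = 1.6e-05), and Psme1, not tested, had at most 4 counts in a library. Psme2b, a near copy of Psme2 that can take part of its reads, had 4 counts in 1 library and 0 in the others. Psmf1 encodes a protein first described as an inhibitor of the core. It went from 274, 340.0 and 366 CPM to 30.5, 52.8 and 66.5 CPM, with no overlap (-2.66 ± 0.17 (SE), adjusted p = 7.01e-10).

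Assembly genes. All 4 Psmg genes were tested and called lower, with a median log2 change of -2.86, but Psmg2 passed the filter only through the GV libraries. The median of the other 3 was -3.44. Their products work in pairs, Psmg1 with Psmg2 and Psmg3 with Psmg4, to build the alpha ring. Psmg4 had 25.9, 33.3 and 56.8 CPM at GV and 1.18, 2.57 and 3.34 CPM at MII (-3.91 ± 0.29 (SE), adjusted p = 6.12e-09). The change of Psmg3 was -3.44 ± 0.31 (SE). Psmg1 had the highest mean FPKM of the 4 over all libraries, although at GV it (91.7 ± 14, SD, n = 6) and Psmg4 (97.8 ± 29.8) differed by less than their SD. It changed least of the 4, from 67.2, 84.8 and 101 CPM to 43.2, 56.5 and 87.5 CPM, with overlap (-0.42 ± 0.18 (SE), adjusted p = 0.0488). Psmg2 had 0 to 51 counts at GV and 0 to 9 at MII, with overlap (-2.28 ± 0.91 (SE), adjusted p = 0.0344). With 1 library left out Psmg1 was called in 4 of 13 fits (adjusted p of 0.0309 to 0.109) and Psmg2 in 5 of 13 (adjusted p of 0.00959 to 0.114). The calls of Psmg1, Psmg2 and Psmc6 were the calls of a fall that some alternative processing did not make, and 29 of the 32 were made in all 22 settings. These 29 include Psmb11 and Psmd13, which passed the filter only through the GV libraries.

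**Figure D3:**
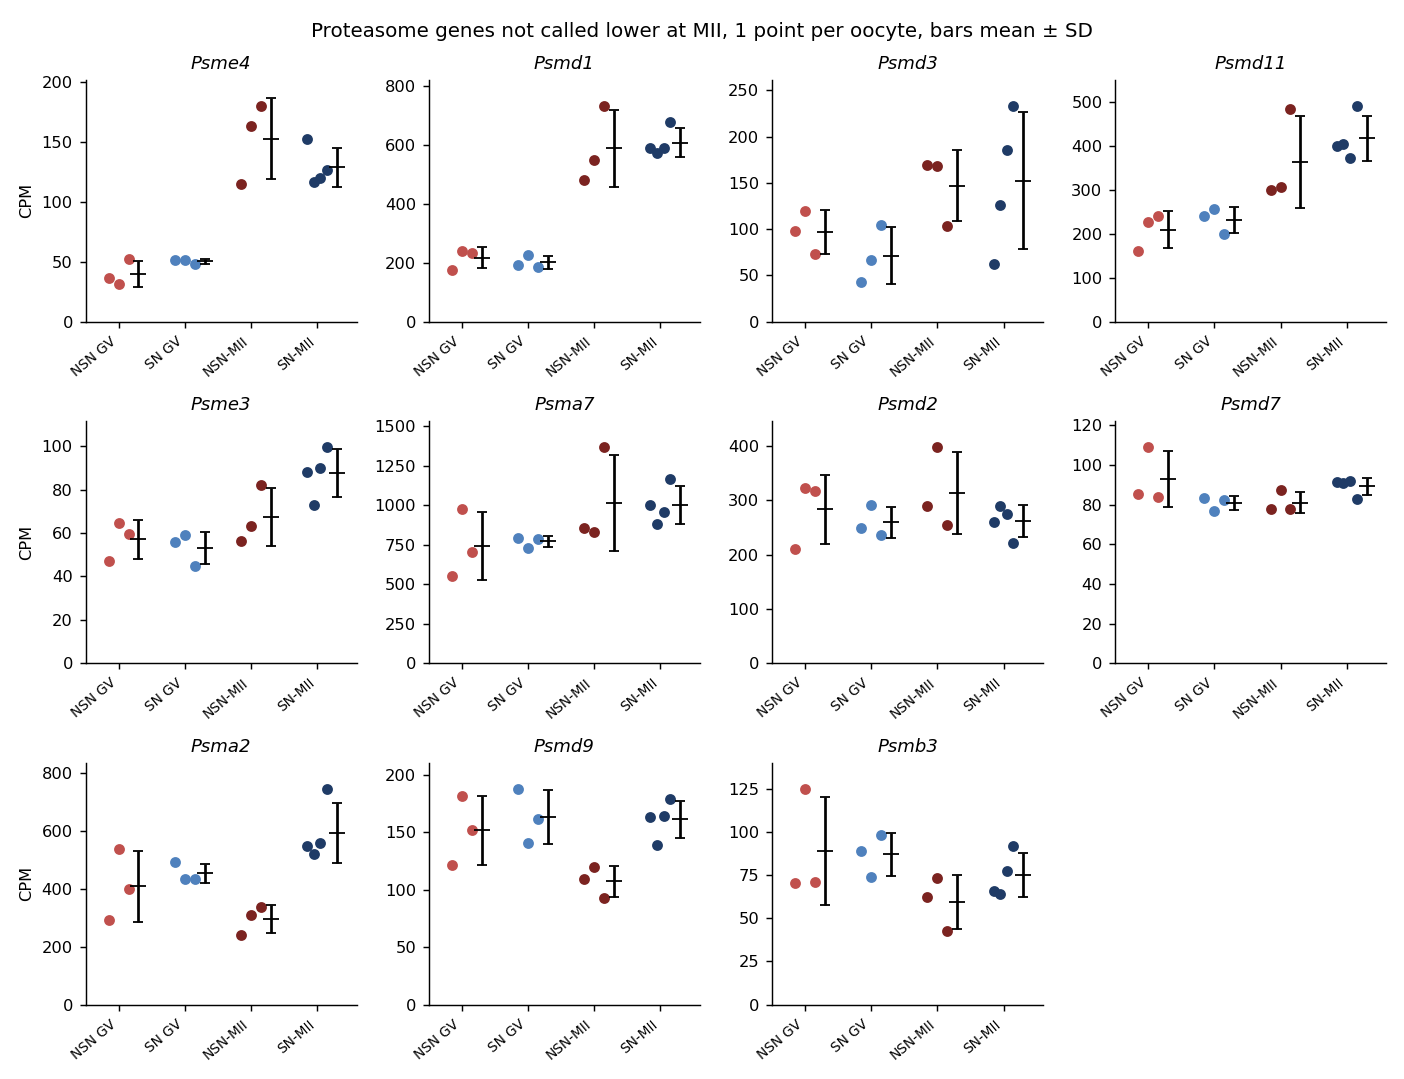
CPM (vertical axes, starting at 0 and differing between panels) of the 11 tested proteasome genes that were not called lower at MII, in the 4 groups, 1 point per oocyte, with mean ± SD, ordered by log2 change. Psme4, Psmd1 and Psmd11 lie higher in all 7 MII oocytes than in all 6 GV oocytes. Psmd2 and Psmd7 overlap between stages, and the NSN-MII points of Psma2 lie under its SN-MII points.

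The change with maturation was also taken within each nucleolus type, as contrasts of the same fit of all 13 libraries. The contrasts set different libraries side by side but share the filter, the scaling and the estimate of spread, so they are not independent. From SN GV to SN-MII oocytes 28 of 43 genes were lower and 5 higher, beside 31.2% and 25.1% of all genes. With the library total alone the counts in SN oocytes were 30 and 3, and the share of higher calls among all called genes went from 44.6% to 33.4%. From NSN GV to NSN-MII oocytes 30 were lower and 3 higher, beside 30.7% and 25.4% of all genes. Among the 40 genes that also passed the filter at MII, 27 were lower in SN and 28 in NSN oocytes. Over the 43 genes the types shared 27 calls of a fall. This is 96.4% of those in SN and 90% of those in NSN oocytes, and no gene was called in opposite directions. The 27 include Psmd13, which passed the filter only through the GV libraries. Over all genes the shared calls of a fall were 85.9% of those in SN and 87.2% of those in NSN oocytes. Psmg1 was called lower in SN oocytes and not in NSN oocytes, and Psma1, Psmb11 and Psmd9 the other way round. Psmb11 passed the filter only through the GV libraries, with 95 counts in the first NSN GV library and 14 to 23 in the other NSN GV libraries. Psmd1 rose by 1.58 ± 0.20 (SE) in SN and 1.44 ± 0.20 (SE) in NSN oocytes, Psme4 by 1.36 ± 0.23 (SE) and 1.93 ± 0.24 (SE), and Psmd11 by 0.85 ± 0.21 (SE) and 0.80 ± 0.23 (SE). Psmd3 and Psme3 were called higher in SN oocytes (1.09 ± 0.38 (SE), adjusted p = 0.0226, and 0.72 ± 0.22 (SE), adjusted p = 0.00907). In SN oocytes the call of Psmd3 was lost without SN GV 1, SN GV 2, SN-MII 3 or SN-MII 4 (adjusted p up to 0.111), and with the library total alone, the replicate block and limma on FPKM (adjusted p up to 0.161). That of Psme3 was lost without the third SN GV library (adjusted p = 0.0554) and with the library total alone (adjusted p = 0.0518). They were not called in NSN oocytes (0.60 ± 0.40 (SE), adjusted p = 0.208, and 0.24 ± 0.23 (SE), adjusted p = 0.392). Psma7 was called in neither (0.38 ± 0.22 (SE), adjusted p = 0.157, in SN and 0.45 ± 0.23 (SE), adjusted p = 0.110, in NSN oocytes) by edgeR. Limma on FPKM called Psma7 higher in both, with adjusted p down to 0.00120 in SN and 0.00137 in NSN oocytes, and without the second NSN GV library edgeR called it in NSN oocytes (0.70, adjusted p = 0.0206).

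The core particle contains each of the subunits Psma1 to Psma7 and Psmb1 to Psmb7 in equal number, so their mRNA levels were set side by side per length, as FPKM. At GV the SD of log2(FPKM + 1) over these 14 genes was 0.732 to 0.910 within an oocyte. At MII it was 2.27 to 2.95, and 2.27 to 2.93 without the third NSN-MII library, so the stages did not overlap. The widening was not particular to the core. The SD was 1.16 to 1.85 at GV and 2.02 to 2.29 at MII over the lid and base genes. These include Psmd13, which passed the filter only through the GV libraries and was their lowest gene in all 13 oocytes. Its FPKM was 0.75 to 12.8 at GV and 0 to 1 at MII, and the SD without it was not taken. Over the ATPase genes the SD was 0.556 to 0.804 at GV and 0.965 to 1.97 at MII. Without the third NSN-MII library it was at most 1.21 at MII. Gene sets outside the proteasome were not compared. The median FPKM of the 14 core genes was 152 to 222 at GV and 17.3 to 63.4 at MII, or 55.7 to 63.4 without the third NSN-MII library. In all 13 oocytes Psma7 was the highest of the 14. It held 26.5% to 29.1% of their summed FPKM at GV and 61.8% to 80.6% at MII, or at most 68.3% without that library. The lowest of the 14 was Psmb5 in all 6 GV oocytes and Psmb7 in 6 of the 7 MII oocytes, with Psma5 in the third NSN-MII library. In mean FPKM, Psmb7 went from 264 ± 28.9 (SD, n = 6) to 2.14 ± 1.0 (SD, n = 7). The next genes in the order of mean FPKM were Psmb6 (341 ± 53.5) and Psmd4 (308 ± 25.8) at GV and Psmd11 (311 ± 42.4) and Psma2 (194 ± 69) at MII, and at GV Psmb6 and Psmd4 differed by less than the SD of Psmb6.

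**Figure D4:**
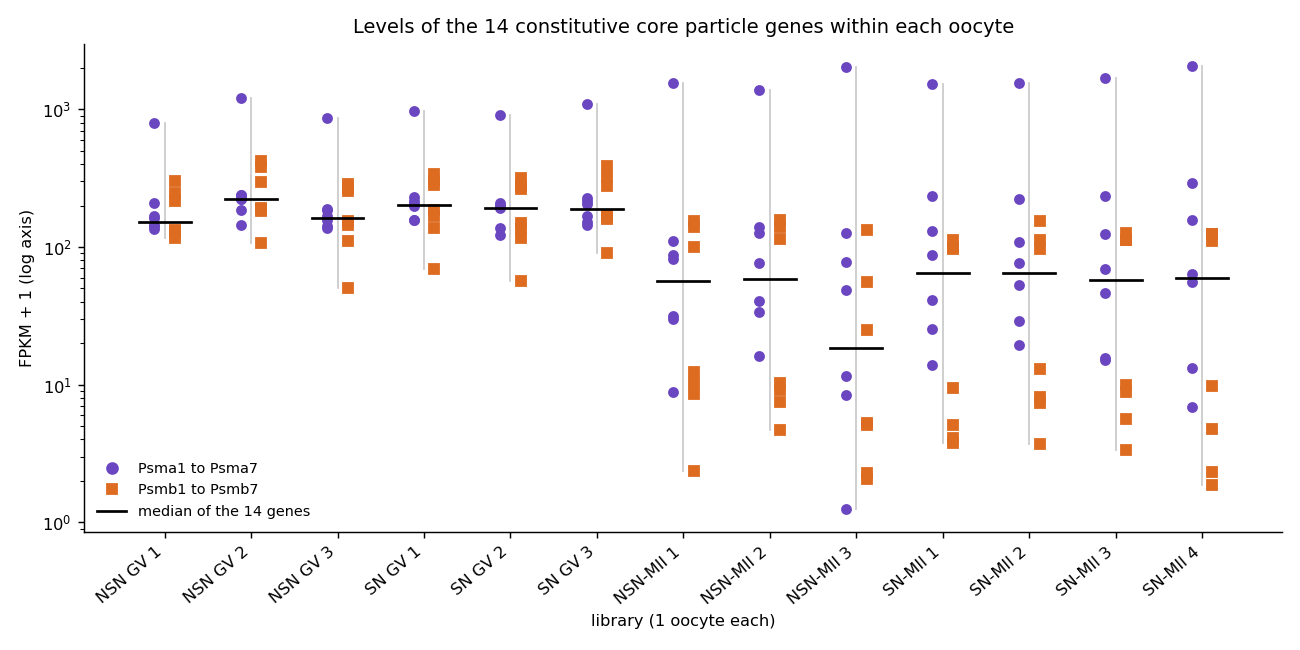
FPKM + 1 on a log axis for Psma1 to Psma7 (circles) and Psmb1 to Psmb7 (squares) in each of the 13 oocytes, with the median as a black line. The genes lie close together in the 6 GV oocytes and spread widely in the 7 MII oocytes, where Psma7 stays on top and Psmb7 lies lowest in 6 of 7.

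RSEM estimates FPKM from the mix of transcripts of a gene, so the count per FPKM, divided by that of the median gene in the same library, tracks the transcript length it assigned. Of 28 proteasome genes with at least 50 counts in every library, this ratio moved by more than 0.4 on the log2 scale between stages for 3 (10.7%), beside 6.93% of 5327 genes in all. For Psmc1 it was 0.598 to 0.641 at GV and 0.264 to 0.449 at MII. For Psma7 it was 0.303 to 0.326 and 0.191 to 0.238. For Psmf1 it rose from 0.773 to 0.819 at GV to 1.32 to 1.61 at MII. None of the 3 overlapped between stages. The log2 change of FPKM (limma, log2(FPKM + 1)) was -2.91 for Psmc1, 0.79 for Psma7 and -3.63 for Psmf1, where counts gave -3.65, 0.42 and -2.66. The larger share of Psma7 in the summed FPKM at MII, given above, includes this shift in its ratio.

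The study set NSN-MII against SN-MII oocytes to ask how eggs of the less competent type differ. Of 40 proteasome genes tested 1, Psma2, was called lower in NSN-MII and none higher, beside 0.259% and 0.0199% of all genes. At an unadjusted p under 0.05 there were 5 (12.5%), beside 9.39% of all genes. Without the third NSN-MII library there were 11 of 41 (26.8%), beside 17.3% of all genes. For 6 (15.0%) the groups did not overlap, beside 10.2% of all genes. The median log2 difference was -0.05, with 0.02 for all genes.

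Psma2, an alpha ring subunit gene at chr13:14613240-14674236 on the plus strand, had 241, 309 and 336 CPM in the NSN-MII oocytes and 547, 520.5, 557 and 745 CPM in the SN-MII oocytes. All NSN-MII oocytes were lower (-1.01 ± 0.18 (SE), adjusted p = 0.0421 in edgeR's quasi-likelihood test). The call was made by DESeq2 as well (adjusted p = 0.000167), was kept without the third NSN-MII library (adjusted p = 0.00926), and was lost with DESeq2's size factors (adjusted p = 0.0511), with limma on log2(FPKM + 0.1) (adjusted p = 0.0610), with limma without a filter (adjusted p = 0.127) and with the replicate block (adjusted p = 0.191). It was lost without any 1 of the other 6 libraries (adjusted p of 0.0663 to 0.156), while the direction was kept. At GV the same gene had 291, 536 and 399 CPM in NSN and 491, 434 and 434 CPM in SN oocytes, with overlap.

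Psmc1, at chr12:100110154-100123405 on the plus strand, encodes an ATPase of the base that helps to open the gate of the core. It had 33.8, 28.4 and 24 CPM in NSN-MII and 11, 11.9, 11.7 and 14 CPM in SN-MII oocytes. All NSN-MII oocytes were higher (1.24 ± 0.26 (SE), adjusted p = 0.0825). It was called higher by DESeq2 (adjusted p = 0.000757), in a fit of all 13 libraries (adjusted p = 0.00627) and without the third NSN-MII library (adjusted p = 0.0193). These were 2 of 9 other settings and 1 of 7 fits with 1 library left out. Adjusted p reached 0.383 among the settings, with the replicate block, and 0.295 among the fits with 1 library left out. At GV it had 193, 256 and 239 CPM in NSN and 241, 249 and 230.4 CPM in SN oocytes, with overlap. Its change from GV to MII was -3.0 ± 0.21 (SE) in NSN and -4.30 ± 0.20 (SE) in SN oocytes.

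Psmd5, Psmd9 and Psma1 had an unadjusted p under 0.05 and were not called. Psmd5 had 71.3, 84.7 and 87.2 CPM in NSN-MII and 126, 115, 143 and 204 CPM in SN-MII oocytes, with no overlap (-0.86 ± 0.21 (SE), adjusted p = 0.14), and DESeq2 called it (adjusted p = 0.0168). Psmd9 had 109, 119.8 and 93 CPM and 163, 139, 164 and 179 CPM, also with no overlap (-0.58 ± 0.17 (SE), adjusted p = 0.218). Psma1 had 94.8, 134 and 65.3 CPM and 157, 121, 145 and 195 CPM, and these overlapped (-0.65 ± 0.25 (SE), adjusted p = 0.407). Without the third NSN-MII library its difference was -0.42 ± 0.20 (SE), and its unadjusted p of 0.0603 in edgeR's test was no longer under 0.05. Psma5 had 35.2, 38.2 and 0.337 CPM and 50.1, 63.9, 57 and 74.4 CPM. It did not overlap and was not called with the third NSN-MII library (-1.29 ± 0.80 (SE), adjusted p = 0.692) or without it (-0.73 ± 0.22 (SE), adjusted p = 0.101). The remaining gene without overlap was Psmd6, with 24.4, 21.4 and 26.5 CPM and 18.3, 19.8, 14.1 and 10.6 CPM (0.61 ± 0.28 (SE), adjusted p = 0.534).

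**Figure D5:**
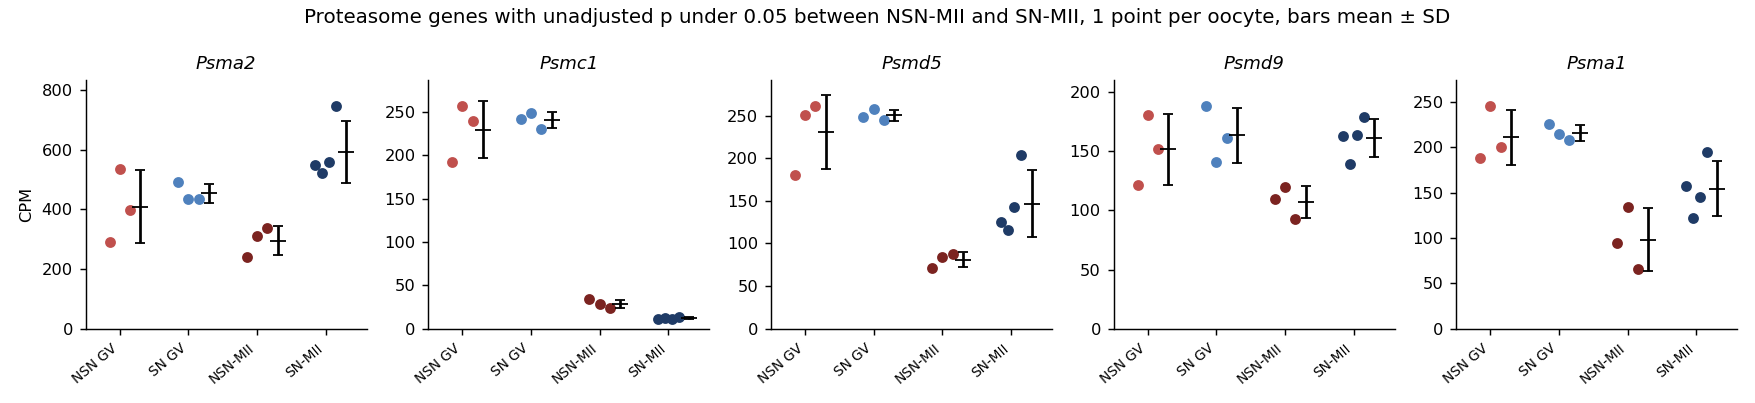
CPM (vertical axes, starting at 0 and differing between panels) of Psma2, Psmc1, Psmd5, Psmd9 and Psma1 in the 4 groups, 1 point per oocyte, with mean ± SD. The NSN-MII oocytes lie below the SN-MII oocytes for Psma2, Psmd5 and Psmd9 and above them for Psmc1, and the GV groups overlap for all 5 genes.

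Between NSN and SN GV oocytes edgeR's quasi-likelihood test called none of 43 proteasome genes, and none had an unadjusted p under 0.05, beside 1.69% of all genes. DESeq2 and limma called none either. For all genes the count of calls was 0 (0%). The median log2 difference was -0.04 and the differences ran from -0.31 to 1.23. The largest was that of Psmb11, with 9.98, 2.87 and 1.77 CPM in NSN and 1.53, 2.25 and 2.75 CPM in SN oocytes, where 1 NSN oocyte stood above the others. The effect of maturation in NSN and in SN oocytes was compared by the interaction of type and stage. None of 43 was called, beside 0.0176% of all genes lower and 0% higher, and 6 had an unadjusted p under 0.05, beside 5.30% of all genes. Psmc1 had the smallest p (1.31 ± 0.27 (SE), adjusted p = 0.189). DESeq2 called it (adjusted p = 0.00391), as did the quasi-likelihood test without the third NSN-MII library (1.41 ± 0.24 (SE), adjusted p = 0.0408). These were 1 of 8 other settings and 1 of 13 fits with 1 library left out. The other genes with an unadjusted p under 0.05 were Psma2 (-0.85), Psmb11 (-3.0), Psmd5 (-0.74), Psmd6 (0.72) and Psmg3 (-1.29), each with an adjusted p of 0.787 or more. Psmb11 passed the filter only through the GV libraries, with 95 counts in the first NSN GV library and 0 to 11 at MII. Psmg3 had 34.8, 43.3 and 20.5 CPM in NSN GV, 29.8, 27.9 and 30.7 CPM in SN GV, 0.952, 2.23 and 2.7 CPM in NSN-MII and 3.05, 4.88, 2.36 and 6.67 CPM in SN-MII oocytes.

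Genes that work with the proteasome were followed from a list of 28, of which 27 were in the count tables and tested. From GV to MII 10 were lower (37.0%) and 8 higher (29.6%), close to the 36.8% and 31.7% of all genes, with a median log2 change of -0.11 beside -0.10 for all genes. Among factors bound to the complex, the log2 change was -2.50 for the ubiquitin receptor Adrm1, -2.84 for the small lid subunit Sem1 and -2.10 for the deubiquitinase Usp14, all lower. The ligase Ube3c, which extends ubiquitin chains at the proteasome, was higher (1.45). Pomp, the chaperone of beta ring assembly, was lower (-1.33). The shuttles Ubqln1 and Ddi2, which bring tagged proteins to the complex, were higher (1.69 and 1.60). Of the regulators of proteasome gene transcription, Nfe2l1 was not called (0.29, adjusted p = 0.155) and its processing enzyme Ngly1 was higher (0.95). The ubiquitin precursor genes Ubb and Rps27a were lower (-3.32 and -6.36), and reads of such repeated sequences may be shared between genes. None of the 27 was called between NSN and SN oocytes at either stage.

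In maturing oocytes the cytoplasmic polyadenylation element near the end of the 3′ UTR is known to direct lengthening of the poly(A) tail. Its letters TTTTAT or TTTTAAT were searched in the last 100 bases of the 3′ UTR, on the transcript strand. Of 34 tested proteasome genes with a 3′ UTR of at least that length 5 (14.7%) held them, beside 20.1% of 10649 other genes. Among the other genes the median log2 change at MII was 0.67 with the element and -0.23 without it. The 5 proteasome genes with it were Psma1, Psma5, Psmb1, Psmg1 and Psmg3, and all 5 were lower at MII. Of the 29 without it 20 were lower (69.0%), and of the other genes with it 19.2% were lower. None of the higher genes Psma7, Psmd3, Psmd11, Psme3 and Psme4 held it, and the 3′ UTR of Psmd1 has 79 bases and holds none. Psmb3 holds it in a 3′ UTR of 59 bases. The sites below show the element in capitals with its flanks, 5′ to 3′, from the GENCODE transcripts of mm10, because 5 of these 6 genes were lower at MII while the median gene with the element was higher.
Psma1: ctataccaatgtTTTTATatgaagaaaata
Psma5: gtgtgtgtgtttTTTTATgaagtctgtaca
Psmb1: gtttttgcttttTTTTAATaaacttctgtt
Psmb3: ttttgtttttctTTTTAATaaaattgcctt
Psmg1: tgatgttttgtaTTTTATtctggcttggga
Psmg3: gtgggaagatttTTTTATtaaaaataaatc

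Proteasome genes share a transcriptional activator, Nfe2l1, which binds antioxidant response elements. The core letters TGACNNNGC were searched on both strands in RefSeq promoters of GRCm38.p6, 250 bases before to 50 after the start, for the 41 proteasome genes matched. They were found in 6 (14.6%), beside 17.2% of the other tested genes and 14% of all genes with a promoter. Of the genes lower at MII 4 of 27 held them (14.8%), and of those not lower 2 of 9 (22.2%). The promoters of Psmb6, which fell, and of Psme4, which had the largest rise, both hold the letters close to the start and are shown because these genes moved in opposite directions. The match of Psmb6 is on the strand printed and that of Psme4 on the other strand, so its capitals read as the reverse complement, and the NNN bases differ. The window of Psmb6 is chr11:70525107-70525406 on the plus strand and that of Psme4 is chr11:30771525-30771824 on the plus strand, with the match in capitals.
Psmb6: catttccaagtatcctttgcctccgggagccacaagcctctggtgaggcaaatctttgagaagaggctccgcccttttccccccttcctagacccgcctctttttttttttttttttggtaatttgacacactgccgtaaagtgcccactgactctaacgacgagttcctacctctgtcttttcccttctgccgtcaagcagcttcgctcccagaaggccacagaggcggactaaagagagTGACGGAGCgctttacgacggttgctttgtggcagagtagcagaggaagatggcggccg
Psme4: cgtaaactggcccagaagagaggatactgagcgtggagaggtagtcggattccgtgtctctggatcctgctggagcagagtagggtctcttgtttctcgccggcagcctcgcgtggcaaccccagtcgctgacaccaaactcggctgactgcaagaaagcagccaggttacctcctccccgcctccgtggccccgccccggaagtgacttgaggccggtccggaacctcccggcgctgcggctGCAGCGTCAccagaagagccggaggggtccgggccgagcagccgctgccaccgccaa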

How the data were processed

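Single-oocyte RNA was made into SMART-seq2 libraries and sequenced by the authors, who trimmed reads with Trim Galore 0.4.4, aligned them to mm10 with Bowtie2 2.3.5 and estimated gene levels with RSEM 1.2.28. DESeq2 1.20.0 is also named in the submitters' processing notes. The authors deposited 2 tables of estimated counts (expected counts, not all whole) and of FPKM, without molecular identifiers. The study's methods name Ensembl annotation for the alignment and RefSeq genes for the counts. Whether strand was used is not given in the sources used here, nor is a batch or date.

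Groups followed the labels. Counts were rounded and fitted with edgeR 4.0.16 in R 4.3.3 (TMM scaling, filterByExpr by group, robust quasi-likelihood test, two-sided), with Benjamini-Hochberg adjustment over all genes tested and calls at an adjusted p under 0.05. The stage contrasts and the interaction came from a fit of 13 libraries, and NSN was compared with SN within GV and within MII. P-values measure the spread between single oocytes. Alternatives were DESeq2 1.42.0 and its size factors, the library total alone, no filter, limma 3.58.1 on log2(FPKM + 1) or log2(FPKM + 0.1), a replicate block, a fit of all libraries for the comparisons within a stage, and each library left out. The code of the fit was also run on counts simulated from its own estimates, which gives no support for the calls made here.

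The members and the gene lists (other proteasome-related genes, oocyte, cumulus and granulosa, and leukocyte markers) were chosen with earlier results of these data known. The value of 1 listed gene is not reported here. Named with values were each tested gene not lower at MII, in each subcomplex the largest fall, the largest rise and the highest mean FPKM, each gene with an unadjusted p under 0.05 between nucleolus types or in the interaction, and the catalytic and tissue-specific core genes. Psma3, Psma4, Psma5, Psmb1, Psmb2, Psmb4, Psmc6, Psmd4, Psmd6, Psmd8, Psmd10, Psmd12, Psmd14, Psmg2 and other genes given by value outside that rule were chosen after their values were seen.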

Additional observations from a re-analysis of the deposited data

Results flagged for a closer look

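Within the 4 SN-MII oocytes, the only group with more than 3 libraries, 7 of 40 proteasome genes had 1 library whose gap to the others exceeded Dixon's 95% critical value for 4 samples. This is 17.5%, where all 10028 genes tested gave 6.60%, of which 51.4% had an extreme value in the fourth SN-MII library. Chance alone gives about 1 in 20. In the fourth SN-MII library Psma2 had 745 CPM (the others 520.5 to 557), Psmb6 88.1 CPM (72.8 to 73.7) and Psmd1 680.3 CPM (572 to 590.2). In the same library Psmd7 had 83.0 CPM (90.9 to 91.7) and Psmf1 30.5 CPM (52.6 to 55.7). In the third SN-MII library Psmd10 had 9.46 CPM (5.30 to 5.72) and Psmg4 1.18 CPM (2.57 to 2.65). The cause was not tested.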

How the results depend on the processing

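From GV to MII, leaving out 1 library gave 29 to 32 proteasome genes lower and 5 to 6 higher, and the other alternatives 30 to 36 lower and 3 to 6 higher, the 3 with the library total alone. In SN oocytes the counts were 25 to 30 lower and 3 to 5 higher, again 3 with the library total alone, and in NSN oocytes 29 to 34 lower and 3 to 4 higher. Scaling by the library total lowered the share of higher calls among all called genes from 46.3% to 36.7% between stages, from 44.6% to 33.4% in SN and from 45.3% to 35.7% in NSN oocytes. Between NSN-MII and SN-MII the count lower was 0 with DESeq2's size factors, with the replicate block, with limma on log2(FPKM + 0.1) and with limma without a filter, and 2 with DESeq2, which called 1 higher. A fit of all 13 libraries called 1 higher. Leaving out 1 library gave 0 to 1 lower and 0 to 1 higher. For the interaction, DESeq2 called 1 higher, and leaving out 1 library gave 0 to 1. No alternative called a proteasome gene between NSN and SN GV oocytes. The labels do not say whether libraries of the same replicate number belong together. Between groups of the same stage or type, such libraries were correlated in their deviations from the group mean (log2 CPM). The correlations ran from -0.505 to 0.196. With group means over 3 or 4 libraries they cannot settle whether the libraries were paired. With the replicate block 30 genes were lower and 5 higher between stages. Signs turned for 3 genes not called between stages: Psmd2 had -0.19 with the library total alone, -0.16 with limma under each setting, and -0.023 to 0.13 without 1 library. Psma2 ranged from -0.14 to 0.079 and Psmd7 from -0.053 to 0.041 without 1 library. The cause was not tested. Depth limits Psmb8, Psmb9, Psmb10, Psma8, Psme1 and Psme2b, which had too few counts to test.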
